A study of Mus musculus with 4 samples.

Results

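Leydig cells with high Insl3 were examined in 4 single-cell RNA-seq libraries, 2 of mouse testicular organoids (TOs) and 2 of mouse testes. Of 41484 cells kept by the quality limits, 3719 were Leydig cells by the rule used here and 1655 of these were Insl3-high. A kept cell had 1000 to 5000 detected genes, at most 20000 UMIs (unique molecular identifiers, each standing for 1 captured transcript) and at most 10% of UMIs from mitochondrial genes. A Leydig cell had at least 8 UMIs of Cyp11a1 and Hsd3b1 together per 10000 UMIs with both detected, at most 2 UMIs of the Sertoli genes Sox9, Wt1 and Cldn11 and 0 UMIs of the leukocyte gene Ptprc. An Insl3-high cell also had at least 10 Insl3 UMIs per 10000, and the other 2064 Leydig cells are called Insl3-low. Members were therefore selected on these 7 genes, whose levels are given as a description.

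TOs were built from dissociated testes of neonatal ICR mice, with germ cells and somatic cells reaggregated together, embedded in basement membrane extract and cultured in a medium with serum replacement, testosterone and FSH. The medium components listed in the methods include no LH or hCG. Both TO libraries and both testis libraries carry the age of 28 days, although a protocol label names day 21 for the TOs. In the paper the days of the TOs count time in culture, whereas the testes came from mice 28 days old. No genotype or treatment separates the libraries beyond culture. The paper states that the sequenced organoids came from 2 independent batches and calls the testes biological replicates. It does not say which batch made which library. The cells were not sorted, and the sources used here do not say how many animals or organoids went into a library. The p-values therefore measure only the spread between these samples.

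Leydig cells are the androgen-producing cells between the seminiferous tubules. LH, acting through its receptor LHCGR and cyclic AMP, drives the import of cholesterol into mitochondria by STAR, after which CYP11A1, 3β-HSD enzymes, CYP17A1 and HSD17B3 convert it to testosterone. INSL3 is an insulin-like peptide secreted by Leydig cells. It acts through the receptor RXFP2, is needed for descent of the fetal testis, and is widely used as a sign of Leydig cell differentiation. The nuclear receptor NR5A1 (SF-1) is a central activator of Leydig genes and binds a short half-site in their promoters.

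Insl3 lies at chr8:71689214-71690575 on the plus strand (GRCm38, GENCODE vM21), inside the 3′ part of Jak3, which runs in the same direction and ends at the same base. Reads at that shared end cannot be assigned to either gene by position alone. The RefSeq bases just upstream of the Insl3 gene start (chr8:71689002-71689213, plus strand, GRCm38.p6) are shown because Insl3 is the gene on which the class rests, with each match to AAGGNC, the core letters of the NR5A1 half-site, in capitals on either strand.

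Insl3 upstream: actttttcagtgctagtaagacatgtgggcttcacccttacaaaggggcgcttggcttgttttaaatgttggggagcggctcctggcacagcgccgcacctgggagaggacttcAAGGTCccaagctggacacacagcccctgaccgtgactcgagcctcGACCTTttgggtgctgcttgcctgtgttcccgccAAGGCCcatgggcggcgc

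The 3 matches lay at -98 to -93, -52 to -47 and -18 to -13 from the gene start, the second of them on the minus strand. At least 1 match was present in 38.1% of 32851 upstream windows of the same length, and as many matches or more in 1.67%. A match is a description of letters and not a measured binding site.

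The share of Insl3-high cells among Leydig cells was lower in both TO libraries than in both testis libraries and differed widely between the TO libraries. It was 57.5% in TO replicate 1 (926 of 1611 cells; 95% Clopper-Pearson interval 55.0 to 59.9) and 1.33% in TO replicate 2 (16 of 1202; 0.763 to 2.15). It was 82.4% in testis replicate 1 (448 of 544; 78.9 to 85.5) and 73.2% in testis replicate 2 (265 of 362; 68.3 to 77.7). The mean was 29.4% ± 39.7 (SD, n = 2) in TOs and 77.8% ± 6.47 (SD, n = 2) in testes, and the difference of -48.4 percentage points was smaller than the gap of 56.1 points between the 2 TO libraries. The two-sided exact permutation test gave p = 0.333, which is the smallest value that 2 against 2 libraries allow. The intervals cover counting error only. As a share of all kept cells, Insl3-high cells were 8.61% and 0.169% in TOs and 4.15% and 2.53% in testes.

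**Figure D1:**
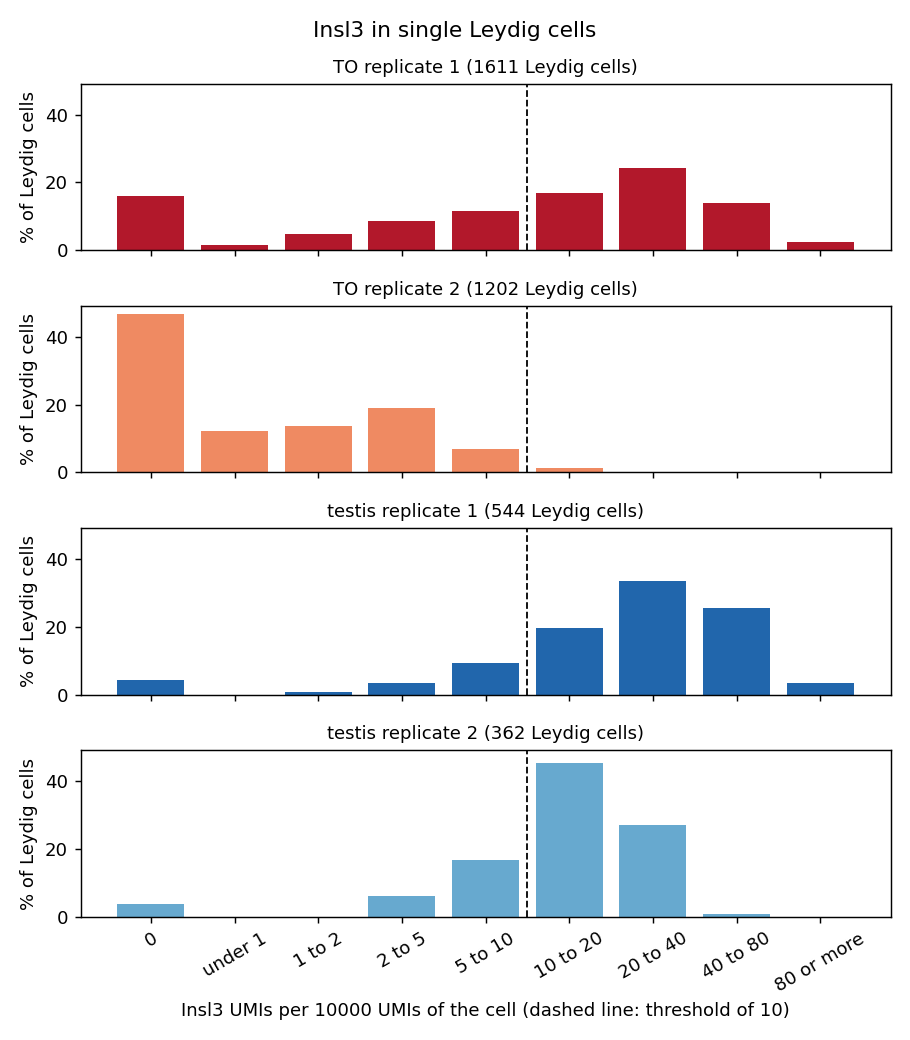
Share of Leydig cells (percent, vertical axis) in each range of Insl3 UMIs per 10000 UMIs of the cell (horizontal axis, unequal ranges, lower bound included) for each library; the dashed line is the threshold of 10. In TO replicate 2 the bars stand left of the threshold except for 16 of 1202 cells, whereas the other 3 libraries have most of their cells to its right.

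TO replicate 2 stood apart before any comparison of genes. Its Leydig cells had a median of 0.648 Insl3 UMIs per 10000, against 14.3 in TO replicate 1, 26.3 in testis replicate 1 and 14.8 in testis replicate 2. Insl3 was not detected in 46.8% of its Leydig cells, and in 16%, 4.41% and 3.87% of those of the other libraries in the same order. Its Insl3-low cells had the highest median depth of the Leydig classes, 13326.5 UMIs per cell. The 16 members of TO replicate 2 were close to the threshold, with a median of 11.5 and a highest value of 22.4 UMIs per 10000. The members of TO replicate 1, testis replicate 1 and testis replicate 2 had medians of 27.8, 31.9 and 17.8.

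The threshold fell within a continuous range of values. The Leydig cells with 8 to 10 Insl3 UMIs per 10000, just outside the class, numbered 75, 16, 16 and 20 in TO replicates 1 and 2 and testis replicates 1 and 2. Those with 10 to 12, just inside it, numbered 50, 10, 19 and 30. The highest excluded value was 9.99 in TO replicate 1 and the lowest included one was 10.0 in testis replicate 2. Lowering the threshold to 5 gave 98 of 1202 Leydig cells (8.15%) in TO replicate 2 and 69.1%, 91.5% and 90.1% in TO replicate 1, testis replicate 1 and testis replicate 2. With cells thinned to 3000 UMIs, TO replicate 2 had 46 of 1049 (4.39%). Raising the threshold to 20 left 1 member in TO replicate 2 and 40.7%, 62.7% and 27.9% of Leydig cells in TO replicate 1, testis replicate 1 and testis replicate 2. At that threshold TO replicate 1 lay above testis replicate 2, and the difference between the means was -24.9 points with an exact permutation p of 0.667.

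Insl3 was also found in cells that were not Leydig cells by the rule. At least 10 UMIs per 10000 were counted in 4.12% and 0.0726% of the other kept cells of the TO libraries and in 1.32% and 0.327% of those of the testis libraries. Among cells positive for Ptprc and Csf1r, which mark macrophages, 3 of 220 and 0 of 616 in TOs and 5 of 113 and 0 of 82 in testes reached that level. The shares of Insl3-high cells among Leydig cells were above these in every library.

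The label was checked against marker genes. Summed over members, the 5 Leydig markers Cyp11a1, Hsd3b1, Insl3, Cyp17a1 and Star made 11006 and 5716 counts per 1000000 UMIs (CPM) in the TO libraries. They made 13110.2 and 17917 CPM in the testis libraries, and 445, 98.2, 165 and 164 CPM in the other kept cells. Cyp11a1, Hsd3b1 and Insl3 were used by the rule, so their part of these sums was fixed by the selection. Cyp17a1, not in the rule, made 1425 and 374 CPM in TOs and 4099 and 11372 CPM in testes. Star, also not in the rule, made 31.6 and 6.45 CPM in TOs and 400.2 and 748 CPM in testes. The 4 endothelial markers summed to between 3.70 and 13.8 CPM, led by Cdh5. The 7 macrophage markers summed to 35.2 CPM in TO replicate 1 and to 22.5 and 10.0 CPM in the testes. They summed to 277 CPM in the 16 cells of TO replicate 2. There Lyz2 made 187 CPM (29 UMIs), C1qa 83.9 CPM (13 UMIs) and Cd68 6.45 CPM (1 UMI). C1qa was at 2.72 CPM in TO replicate 1 and at 8.41 and 3.58 CPM in the testes. Adgre1, Cd74 and Csf1r were at 0 in the 16 cells, as Ptprc was by the rule. The 7 Sertoli markers, 3 of which the rule itself kept low, summed to 239, 194, 241 and 311 CPM, of which Aard made 172, 148, 225 and 301 CPM. The 4 peritubular myoid markers, led by Acta2, summed to 186 and 6.45 CPM in TOs and 93.2 and 4.29 CPM in testes. The 6 stromal markers were higher, with 520.1 and 645 CPM in TOs, 477 CPM in testis replicate 1 and 248 CPM in testis replicate 2, and at least 1 of their UMIs was found in 75% to 91.3% of members. Dcn led them with 246, 239 and 199.6 CPM in the first 3 of these libraries, and Ebf1 with 123 CPM in testis replicate 2. The other kept cells had 3413, 5471, 504 and 484 CPM of the stromal markers, so in testis replicate 1 members and other cells were nearly level. The 4 germ cell markers summed to 36.7 and 25.8 CPM in TOs and 124 and 85.8 CPM in testes, beside 447, 491, 677 and 720.2 CPM in the other kept cells. The part of stromal transcripts in the results below was not tested.

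Spermatid transcripts separated the conditions in these cells. The 6 spermatid genes summed to 0.175 and 0 CPM in the members of the TO libraries. Only Smcp was detected there, with 2 UMIs in TO replicate 1. The 6 genes summed to 1759 and 3920 CPM in the members of the testis libraries, where every member held at least 1 such UMI. In these members they were led by Prm1, the protamine that packs sperm DNA. The other kept cells of the testes had 9302 and 77883 CPM. Cell number and depth also differed between libraries. Members summed to 11404565 UMIs in TO replicate 1, 155014 in TO replicate 2, 2971348 in testis replicate 1 and 2796534 in testis replicate 2, with median depths of 12565.5, 11721, 6377 and 10199 UMIs per cell. A doublet caller marked 11.1%, 6.25%, 9.82% and 7.92% of members, and 11.8%, 3.63%, 15.6% and 38.1% of Insl3-low cells. Between any pair of libraries, 30 to 55 barcodes were shared (at most 0.440% of the smaller library), and none was a member in both.

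Within each library, Insl3-high cells were first set against Insl3-low cells. Because Insl3 chose the classes, these ratios are described without a test. For each direction, the 8 genes with the largest ratio in their least favourable library were taken from genes with at least 100 CPM in the higher class of every library, the genes of the rule left out. In testis replicate 2 the Insl3-low class held 37 marked doublets among 97 cells, whose part in these ratios was not tested.

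Lcn2, which encodes the iron-siderophore carrier lipocalin 2, had the largest ratio of these in its least favourable library. Its level was 4762 CPM in Insl3-high and 1244 CPM in Insl3-low cells of TO replicate 1, and 3980 and 735 CPM in those of TO replicate 2. In the testes it was 173 and 25.8 CPM in replicate 1 and 2614 and 1381 CPM in replicate 2. The log2 ratios were 1.94, 2.44, 2.69 and 0.92, so Lcn2 followed the Insl3 class in organoids and testes although testis replicate 1 had far less of it. Fabp3, a fatty acid carrier, had log2 ratios of 0.86, 1.00, 1.28 and 0.55. The protease inhibitors Cstb and Cst3, the procollagen processing enhancer Pcolce, Cmbl and Tnfaip8 had ratios between 0.48 and 1.06.

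Cyp17a1, whose product makes androgens from progestins, was the steroid enzyme among these 8 genes. It was at 1425 CPM in Insl3-high and 1031 CPM in Insl3-low cells of TO replicate 1 and at 374 and 97.8 CPM in those of TO replicate 2. In the testes it was at 4099 and 710 CPM in replicate 1 and at 11372 and 7278 CPM in replicate 2. Within members, cell-to-cell Insl3 and Cyp17a1 had a Spearman correlation of 0.253 over 445 cells and 0.223 over 263 cells of the 2 testis libraries and of 0.00767 over 917 cells of TO replicate 1, all thinned to 2000 UMIs. These cells share their library, and both genes were counted in the same UMIs.

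The 8 genes taken for lower values in Insl3-high cells included Pak3, a protein kinase, Enah, an actin regulator, Magi2, a scaffold protein, Lsamp, an adhesion protein, and Ptprd, a receptor phosphatase. Pak3 was at 300 CPM in Insl3-high and 549 CPM in Insl3-low cells of TO replicate 1 and at 86.2 and 179 CPM in those of testis replicate 1. The ratios of these 5 genes were between -1.84 and -0.59 on the log2 scale. Cdk5rap2, AU020206 and Gramd1b completed the group.

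**Figure D2:**
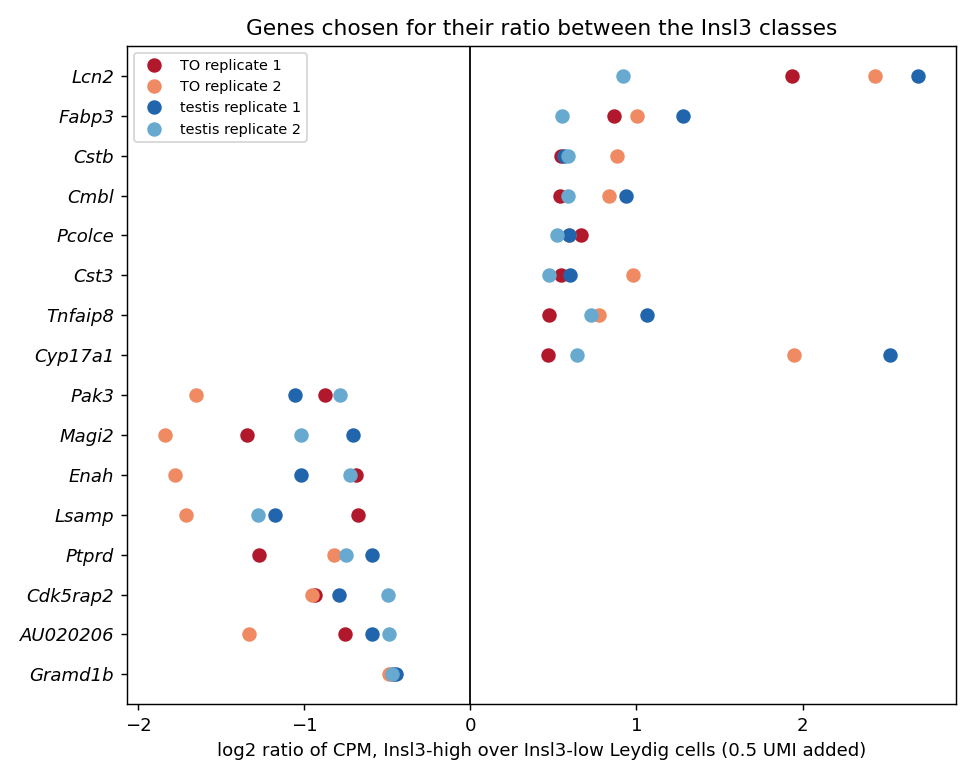
Log2 ratio of summed CPM in Insl3-high over Insl3-low Leydig cells (horizontal axis) for the 8 genes in each direction with the largest ratio in their least favourable library; each point is 1 library. Lcn2 stands furthest to the right, between 0.92 and 2.69, and the genes were chosen on these ratios.

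Other genes of the pathway differed in how they followed the class. Hsd17b3 had higher values in Insl3-high cells of TO replicate 1 and testis replicate 2, by 3.34 and 0.57 on the log2 scale. In testis replicate 1 it had 76 UMIs in Insl3-high and 0 in Insl3-low cells, and in TO replicate 2 it had 0 and 14. Star was at 31.6 and 34.4 CPM in Insl3-high and Insl3-low cells of TO replicate 1 at 400.2 and 319 CPM in those of testis replicate 1 and at 748 and 471 CPM in those of testis replicate 2, with 1 UMI in Insl3-high cells of TO replicate 2. Lhcgr and Nr5a1 had log2 ratios between -0.22 and 0.04 in all 4 libraries. The tissue kallikreins, a cluster of near-identical serine protease genes whose reads may be split between copies, had higher values in Insl3-high cells of TO replicate 1, with a median log2 ratio of 2.94 over the 8 genes with at least 10 UMIs in TO replicate 1. In TO replicate 2 only Klk1b27, Klk1b21 and Klk1b24 had a UMI in Insl3-high cells, with log2 ratios of 1.08, 1.79 and 1.59. The medians were 1.01 over 4 genes and 0.54 over 10 in the testes. Klk1b27 was at 1270.2 and 131 CPM in the 2 classes of TO replicate 1 and at 605 and 430.1 CPM in those of testis replicate 2. Genes of cyclic AMP signalling and the immediate-early response had median log2 ratios of -0.59 and -0.55 in TOs and -0.24 and -0.12 in testes, beside -0.17, 0.17, -0.15 and -0.18 over all genes with at least 10 UMIs. In testis replicate 2 the list thus lay above the median of all genes.

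TO and testis were then compared within Insl3-high cells, on UMIs summed per library. Genes at 5 or more times their level in members in the other cells of either condition were left out, as they may come from other cells, and 10741 genes were tested by edgeR's quasi-likelihood test. With a Benjamini-Hochberg adjusted p under 0.01 and more than 1 on the log2 scale as the threshold, 106 genes (0.987%) were higher and 311 (2.9%) lower in TOs. Of the 311 lower genes, 256 (82.3%) had a higher CPM in the other cells of the testes than in the members, which was so for 37.1% of the genes not called, and the part of such transcripts in each call was not tested. In 1 alternative a background was subtracted from the members. It was the summed profile of the other kept cells of the library, scaled by spermatid transcripts, and not a measured profile of free RNA. Then 24 genes were higher and 11 lower, and all 35 were among the 417 called before. The scaling used spermatid genes other than Smcp, which had the 2 spermatid UMIs of TO replicate 1. The subtraction took 0% of the UMIs from the members of both TO libraries, which held no UMI of the scaling transcripts. It took 19.2% and 5.07% from the members of the testes, so UMIs were taken from the testis sums only. Without the 16 cells of TO replicate 2, 127 genes were higher and 221 lower, and 304 of the 417 were called again. In every fit without a library, 1 condition was left with a single library that was assumed to vary like the other condition, so p-values of these fits describe only the dependence on that library. Without TO replicate 1 the counts were 12 and 2. With all Leydig cells in place of the Insl3-high ones, a choice made after seeing the data, they were 154 and 650.

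Of the steroid pathway, Star and Hsd3b6 passed the test. Star, at chr8:25806555-25815982 on the plus strand, carries cholesterol into the mitochondrion. Its level was 31.6 CPM in TO replicate 1, 6.45 CPM in TO replicate 2, 400.2 CPM in testis replicate 1 and 748 CPM in testis replicate 2. The groups did not overlap, and Star fell in TOs by 4.55 ± 0.51 (SE) on the log2 scale with an edgeR adjusted p of 0.000505. Over 17 alternatives the log2 fold change of Star ran from -6.56 to -3.29. Hsd3b6, at chr3:98805504-98814443 on the minus strand, encodes the 3β-HSD isoform of adult mouse Leydig cells. It was at 12.1 CPM in TO replicate 1 and 0 UMIs in TO replicate 2, where a count of 0 allows up to 19.4 CPM, and at 559 and 826 CPM in the testes. Hsd3b6 fell by 6.12 ± 0.53 on the log2 scale, with an edgeR adjusted p of 0.00023. Its log2 fold change ran from -13.4 to -3.69 over 17 alternatives. The Insl3-low cells of TO replicate 2 had 36.7 CPM of Hsd3b6 and those of the testes 338 and 511 CPM. Hsd3b6 is a close paralog of Hsd3b1, so reads may be split between them. Without the upper limits on genes, UMIs and mitochondrial share, the edgeR adjusted p was 0.0219 for Star and 0.0215 for Hsd3b6, and without TO replicate 1 it was 0.0329 for Star. At an Insl3 threshold of 5 it was 0.04 for Hsd3b6.

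Cyp17a1, at chr19:46667165-46673172 on the minus strand, was at 1425 and 374 CPM in TOs and 4099 and 11372 CPM in testes. The groups did not overlap, but its log2 fold change of -3.19 ± 0.69 had an edgeR adjusted p of 0.015 and did not pass. It passed with either testis library alone (adjusted p = 1.94e-09 and 0.000108) and not with either TO library alone (0.0608 without TO replicate 1 and 0.0401 without TO replicate 2). In all, Cyp17a1 passed under 7 of 17 alternatives, with -4.46 to -2.27 as the range of its fold change. Hsd17b3, at chr13:64058266-64089230 on the minus strand, encodes the enzyme that makes testosterone from androstenedione. It was at 19.9 CPM in TO replicate 1, 0 UMIs in TO replicate 2, 25.6 CPM in testis replicate 1 and 328 CPM in testis replicate 2. Testis replicate 1 thus lay nearer to TO replicate 1 than to the other testis library, and the log2 fold change of -3.45 ± 0.97 had an edgeR adjusted p of 0.0534. Without testis replicate 1, the one near the TO values, the fold change was -4.29, and without testis replicate 2 it was -0.65. Over the fits that each left out 1 library, the fold change of Hsd17b3 ran from -11.5 to -0.65. Of the 15 genes of the list, 12 were tested. All 12 had a log2 fold change below 0, with a median of -1.24 against -0.04 for all 10741 genes, and 2 of them passed, both lower. Over all genes tested, 5698 values were below 0 and 2.9% were called lower. Fdx1, which passes electrons to CYP11A1, was at 928 and 1045 CPM in TOs and 2764 and 2832 CPM in testes, with a log2 fold change of -1.63 ± 0.37 and an edgeR adjusted p of 0.0208. This was 0.00892 without testis replicate 2 and 0.0109 to 0.233 without each other library.

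The genes used by the rule stood as follows. Cyp11a1 was at 3123 and 2097 CPM in TOs and 3380 and 2864 CPM in testes. Hsd3b1 was at 3044 and 1955 CPM in TOs and 1591 and 1034 CPM in testes. Insl3 itself was at 3383 and 1284 CPM in TOs and 3640.1 and 1898 CPM in testes.

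**Figure D3:**
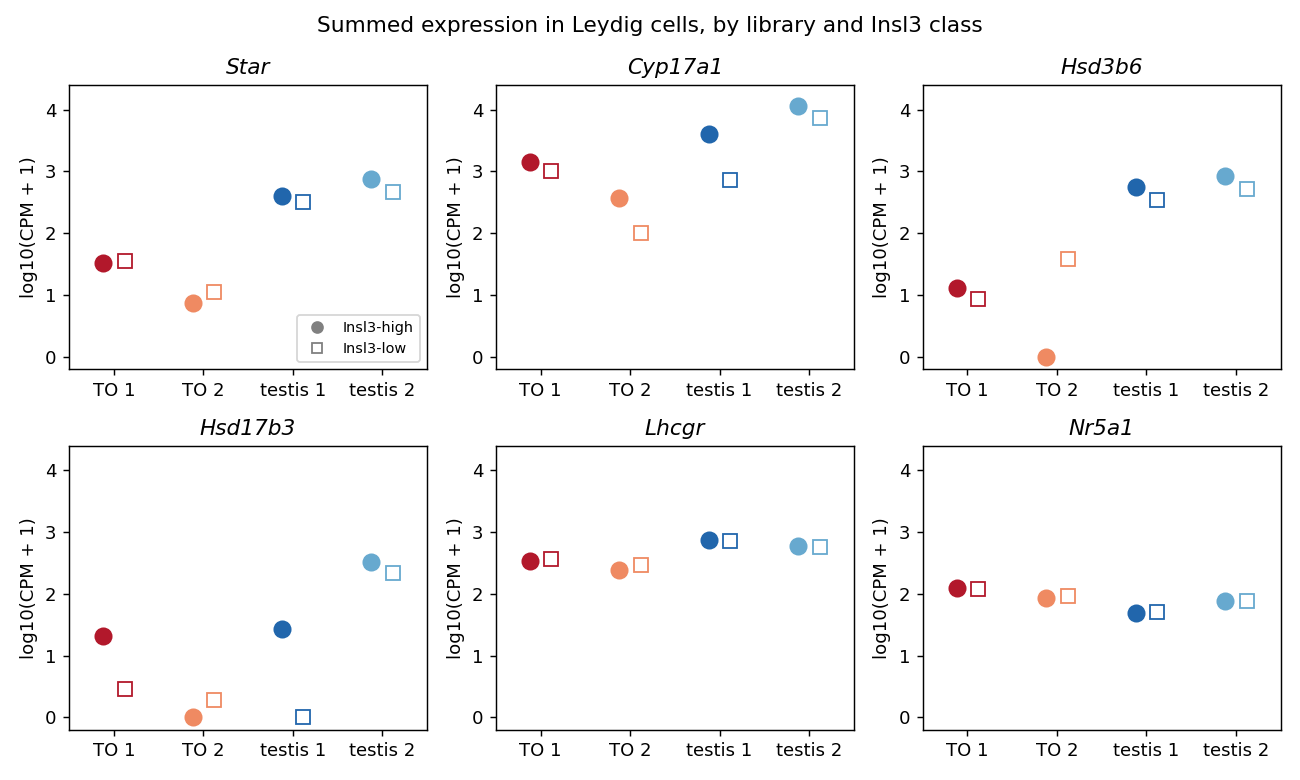
Summed expression, as log10(CPM + 1), of 6 genes in Insl3-high (filled circles) and Insl3-low (open squares) Leydig cells of each library; a value of 0 means no UMI. Star, Hsd3b6 and Lhcgr are lower in both classes of the TO libraries than in those of the testis libraries. The values of Lhcgr and of Nr5a1 each span less than 1 unit.

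The same difference was looked for in single cells. Each member was thinned to 2000 UMIs, which left out 9, 1, 3 and 2 shallower members. At least 1 Star UMI was then found in 5.13% (47 of 917) and 0 of 15 members of the TO libraries, the latter allowing a share of up to 20%, and in 47.2% and 70.7% of members of the testis libraries. Macrophages, which should lack Star, showed it in 1.37%, 0.163%, 0.917% and 2.53% of cells in the 4 libraries. The other kept cells showed Star in 3.83%, 1.54%, 1.40% and 0.983%, in the same order. In TO replicate 1 the Insl3-low cells showed it in 4.91%, near the 5.13% of members. Cyp17a1 was found in 49.5% and 20% of members in TOs and in 78.9% and 99.2% in testes, and in 6.85%, 0.325%, 2.75% and 3.80% of macrophages. Hsd3b6 was found in 1.53% and 0 of 15 members in TOs and in 50.3% and 66.5% in testes. The TO value of 1.53% for Hsd3b6 compared with 0.457% in macrophages of the same library, and the testis values with 3.67% and 1.27%. Hsd17b3 was found in 3.05% and 0 of 15 members in TOs and in 4.27% and 40.7% in testes, and in 0 of 219, 615, 109 and 79 macrophages, which allows up to 1.37%, 0.488%, 2.75% and 3.80%. Lhcgr, the LH receptor, was found in 40.6% and 13.3% of members in TOs and in 70.6% and 68.1% in testes, and in 1.83%, 0.163%, 3.67% and 1.27% of macrophages. For Hsd17b3 the intervals of TO replicate 1 (2.04 to 4.38) and testis replicate 1 (2.59 to 6.59) overlapped, and 0 of 15 cells in TO replicate 2 allows more than the share of testis replicate 1. For the other 4 genes the shares of both testis libraries were above those of both TO libraries. The differences between the means were -56.4, -54.3, -57.7, -21.0 and -42.4 points for Star, Cyp17a1, Hsd3b6, Hsd17b3 and Lhcgr, and that of Hsd17b3 was -2.74 points without testis replicate 2 and -39.2 points without testis replicate 1. Each two-sided exact permutation test, and its value adjusted over the 5 genes, gave p = 0.333, the smallest that 2 against 2 allow.

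Among the receptors, Lhcgr (chr17:88716481-88791990, minus strand) was at 345 and 245 CPM in TOs and 747 and 585 CPM in testes. Its log2 fold change of -1.27 ± 0.34 had an edgeR adjusted p of 0.0442. This was 0.00776 without testis replicate 2 and 0.107 to 0.265 without each other library. Igf1r, the receptor for insulin-like growth factors, was at 55.9 and 110 CPM in TOs and 300.2 and 428 CPM in testes and fell by 2.45 ± 0.40 on the log2 scale (edgeR adjusted p = 0.00313, or 0.257 without TO replicate 1). Its call was lost under 4 of 16 alternatives. It was the 1 receptor of 10 tested that passed, beside 2.9% of all genes called lower and 0.987% called higher. Prlr, the prolactin receptor, was at 819 and 697 CPM in TOs and at 1434 and 1312 CPM in testes, a log2 fold change of -0.98 ± 0.35 (edgeR adjusted p = 0.128). Pdgfra had 108 and 200 CPM in TOs and 68.7 and 49.0 CPM in testes (edgeR adjusted p = 0.0814). Its adjusted p was 0.00769 without testis replicate 1 and 0.145 to 0.264 without each other library. The list's median was -0.06, near that of all genes.

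None of the 10 tested genes of the list of Leydig and stromal regulators passed by edgeR's adjusted p. In so short a list this is near the shares of all genes called (0.987% higher and 2.9% lower). Beside transcription factors, the list holds the enzyme genes Sult1e1 and Ptgds and the adhesion gene Vcam1. Nr5a1 (chr2:38692656-38714542, minus strand) was at 122 and 83.9 CPM in TOs and 47.5 and 75.8 CPM in testes, a log2 fold change of 0.71 ± 0.33 with an edgeR adjusted p of 0.266, and it overlaps the antisense gene Nr5a1os. Gata4, another transcriptional activator of steroid genes, was at 220 and 148 CPM in TOs and 96.3 and 80.5 CPM in testes (log2 fold change 0.99 ± 0.30, edgeR adjusted p = 0.0739). Cebpb was at 526 and 606 CPM in TOs and 23.9 and 184 CPM in testes (2.33 ± 0.67, edgeR adjusted p = 0.0587). Without testis replicate 2 the fold change of Cebpb was 4.42 (adjusted p = 5.58e-14), and without testis replicate 1 it was 1.53 (0.0127). Sult1e1, the estrogen sulfotransferase of adult Leydig cells, varied widely within groups, with 1979 and 103 CPM in TOs and 6.73 and 530 CPM in testes. So did Ptgds, with 514 and 64.5 CPM in TOs and 7.07 and 582 CPM in testes. Vcam1 was at 703 and 826 CPM in TOs and 1150.0 and 1247 CPM in testes. The median over the 10 genes was 0.66.

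Of 23 genes of cholesterol synthesis, uptake and storage, 2 were lower in TOs and the other 21 did not pass, with a median log2 fold change of -0.44 and 19 of 23 values below 0. The shares over all genes were those given for the steroid list. Scarb1, the receptor that takes up cholesterol from high-density lipoprotein, was at 51.9 and 38.7 CPM in TOs and 190 and 345 CPM in testes and fell by 2.57 ± 0.38 (edgeR adjusted p = 0.00183). Dhcr7, the last enzyme of cholesterol synthesis, was at 52.3 and 19.4 CPM in TOs and 171 and 188 CPM in testes and fell by 2.13 ± 0.36 (edgeR adjusted p = 0.00376). Without TO replicate 1 the adjusted p was 0.188 for Scarb1 and 0.113 for Dhcr7, and without TO replicate 2 it was 0.0161 and 0.0198. In all, the call was lost under 8 of 17 alternatives for Scarb1 and under 5 of 17 for Dhcr7. Abca1, which exports cholesterol, was at 881 and 709.6 CPM in TOs and 509 and 527 CPM in testes. Soat1 and Msmo1, which store and make sterols, ran from 426 to 1236 CPM across the 4 libraries.

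Among 7 tested genes of secreted factors, Ren1, which encodes renin, passed, beside 2.9% of all genes called lower and 0.987% called higher. It was at 0.351 and 0 CPM in TOs, from 4 UMIs in all, and at 199 and 33.6 CPM in testes, a change of -8.41 ± 1.14 on the log2 scale with an edgeR adjusted p of 0.00124. Without TO replicate 1 its adjusted p was 0.345, and its call was lost under 4 of 16 alternatives. Agt, the substrate of renin, did not pass and ran from 195 to 2531 CPM, the lowest and the next highest value both in testes. Inha was at 380 and 71.0 CPM in TOs and 2059 and 581 CPM in testes, and Kitl at 284 and 174 CPM in TOs and 120 and 146 CPM in testes.

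The remaining lists, of 2 to 16 tested genes, held no call, which is likewise near the shares of all genes called. They were 5 tested kallikreins (median log2 fold change 1.11), 16 cyclic AMP and immediate-early genes (0.21), 15 antioxidant genes (-0.37), and 2 or 3 genes each of the hedgehog, immature and fetal Leydig, adrenal and matrix lists. The kallikreins spanned both groups, Klk1b27 being at 1270.2 and 200 CPM in TOs and 50.8 and 605 CPM in testes. Gnas was at 1455 and 2297 CPM in TOs and 776 and 817 CPM in testes, and Gstm1, a glutathione transferase, at 1345 and 942 CPM in TOs and 3740.1 and 2275 CPM in testes. The antioxidant genes Aldh1a1 and Prdx1, with a higher mean CPM than Gstm1, had log2 fold changes of -0.37 and -0.23. Srd5a1, the 5α-reductase of immature Leydig cells, was at 26.4 and 12.9 CPM in TOs and 150.1 and 51.5 CPM in testes, with a log2 fold change of -2.18 ± 0.51 and an edgeR adjusted p of 0.0238. Without testis replicate 2 the fold change of Srd5a1 was -2.73 (adjusted p = 1.48e-10), and without testis replicate 1 it was -1.14 (0.0773). Mrap, a partner of melanocortin receptors, was at 302 and 316 CPM in TOs and 491 and 578 CPM in testes. Of the 12 matrix genes 9 were left out as higher in other cells. Sparc, tested, was at 5760.4 and 4483 CPM in TOs and 5372 and 2393 CPM in testes.

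**Figure D4:**
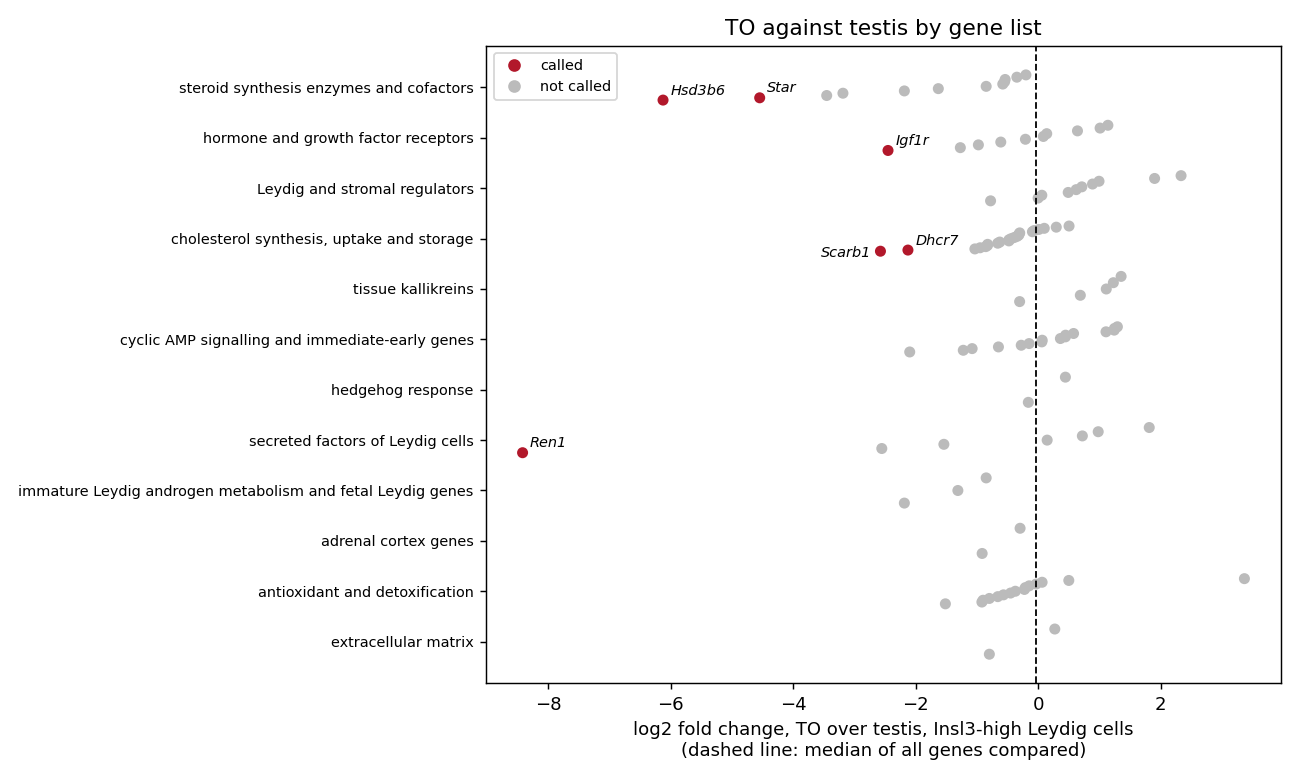
Log2 fold change of TO over testis in Insl3-high Leydig cells (horizontal axis) for each tested gene of 12 lists (rows); red points passed the test and are named, grey points did not, and the dashed line is the median of all genes tested. The steroid list lies left of the line, with Hsd3b6 at -6.12 and Star at -4.55.

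Over all genes, lists included, the largest changes were taken among called genes of at least 50 CPM. Those with the largest rise in TOs were Nrsn1, Saa3, Fabp7, Hephl1 and Fzd2. Hephl1, a ferroxidase of the hephaestin family, was at 458 and 394 CPM in TOs and 2.02 and 0.715 CPM in testes, a rise of 8.12 ± 0.47 on the log2 scale (edgeR adjusted p = 2.62e-05), and it kept its call under each of 16 alternatives. Fzd2, a Wnt receptor, was at 567 and 142 CPM in TOs and 4.04 and 1.43 CPM in testes. Saa3, an acute-phase protein, was at 140 and 1290.2 CPM in TOs and 1.68 and 0 CPM in testes, and its call was lost under 3 of 16 alternatives, with an edgeR adjusted p of at most 0.0117. Nrsn1 was at 911 and 83.9 CPM in TOs with 2 UMIs in testes, a pooled ratio of 2597 with a counting interval of 719 to 21444, and an edgeR adjusted p of 0.0405 without TO replicate 1. Fabp7, a fatty acid carrier, was at 157 CPM (1788 UMIs) in TO replicate 1 and 12.9 CPM (2 UMIs) in TO replicate 2, with 1 UMI in testes. Its pooled ratio of 893, with a counting interval of 160.1 to 35297, thus came from TO replicate 1.

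The 5 genes with the largest fall were Ren1, 1700029I15Rik, Ass1, Slc38a1 and Hsd3b6. Ass1, which encodes argininosuccinate synthase of arginine synthesis, was at 18.7 and 32.3 CPM in TOs and 2606 and 1479.7 CPM in testes. It fell by 6.72 ± 0.55 (edgeR adjusted p = 0.000209) and kept its call under each of 17 alternatives. Slc38a1, a glutamine transporter, was at 1.58 and 0 CPM in TOs and 79.4 and 154 CPM in testes, with an edgeR adjusted p of 0.159 without TO replicate 1. 1700029I15Rik had 3 UMIs in TOs and 308 in testes, a pooled level 206 times as high in testes with a counting interval of 69.8 to 1003, and an edgeR adjusted p of 0.401 without TO replicate 1. It was 4.99 times as high in the other cells of the testes as in the members, just under the limit at which a gene was left out, and it overlaps Mapk8ip1 on the other strand.

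Whether the change from testis to TO differed between Insl3-high and Insl3-low cells was tested with an interaction term over the 8 sums, with library as a block. Of 11466 genes tested, 18 (0.157%) had a more positive change and 18 (0.157%) a more negative change in Insl3-high cells. Hsd17b3 was the 1 gene of the steroid list among them, with a value of 2.41 ± 0.45 (edgeR adjusted p = 0.000206). It rested on 227 UMIs in Insl3-high and 12 in Insl3-low cells of TO replicate 1 and 0 and 14 in TO replicate 2. The testes had 76 and 0 in replicate 1 and 918 and 152 in replicate 2. With 0.5 UMI added to each sum, the log2 ratio of the classes was 3.34 in TO replicate 1. It was 4.80 in testis replicate 1 and 0.57 in testis replicate 2. Testis replicate 1 thus lay above TO replicate 1, against the direction of the call. Star, Cyp17a1, Hsd3b6, Lhcgr and Nr5a1 were not called. The kallikreins Klk1b27, Klk1b21 and Klk1b24 had values of 1.92, 1.72 and 1.54 and the immediate-early gene Egr1 -1.03, and Scarb1 had -1.58. Sult1e1, of the regulator list, had 1.27. The kallikreins, Egr1, Scarb1 and Sult1e1 were named after their values were seen. The sums of TO replicate 2 entered with 16 cells on one side and 1186 on the other.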

How the data were processed

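Single cells of 2 TO and 2 testis libraries were counted by the authors with Cell Ranger 7.1.0. The deposited files are tables of UMI counts over the barcodes the study gives as its collected cells, before the authors removed doublets, filtered cells and normalized. From 14643, 12491, 12179 and 11826 barcodes (106577822, 119966959, 77016449 and 74988295 UMIs in TO replicates 1 and 2 and testis replicates 1 and 2), 10759, 9463, 10804 and 10458 cells were kept. Free RNA and doublets were left in. In alternatives the scaled profile of the other kept cells was subtracted as background, or doublets were removed (Scrublet in scanpy 1.11.5, the highest 0.8% per 1000 barcodes). UMIs of members were summed per library and tested with edgeR 4.0.16 (glmQLFit and glmQLFTest, TMM) after the default filter on low counts. The 7 genes of the rule were not tested. DESeq2 1.42.0 was an alternative. Both fits were tested on simulated data. CPM are UMI counts per 1000000 UMIs of a sum. Gene positions came from GENCODE vM21. No columns of samples were left unused. The members and the gene lists were chosen with earlier results of these data known. Named were members of the steroid, receptor and regulator lists and, of other lists, every call and some of the 3 genes with the highest mean CPM. Also named were the 5 called genes of at least 50 CPM with the largest change in each direction, the 8 genes in each direction that differed most between the Insl3 classes in the least favourable library, and the 5 largest interaction calls.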

Additional observations from a re-analysis of the deposited data

Results flagged for a closer look

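The 5 genes with the largest interaction values changed differently between TO and testis in Insl3-high and in Insl3-low Leydig cells, by the interaction term of the edgeR fit (2 residual degrees of freedom are left by 8 sums). With the sums thinned to the smallest, 3 genes had a more positive and 1 a more negative value. Bpifb4 had a value of -3.86 ± 0.52 (SE) on the log2 scale with an edgeR adjusted p of 1.62e-08. In TO replicate 1 it was at 3.51 CPM (40 UMIs) in Insl3-high and 34.3 CPM (218 UMIs) in Insl3-low cells. The classes had 13.5 CPM (40 UMIs) and 9.23 CPM (5 UMIs) in testis replicate 1. They had 23.6 CPM (66 UMIs) and 13.0 CPM (9 UMIs) in testis replicate 2. In TO replicate 2 the classes were nearly level, at 12.9 CPM (2 UMIs) and 15.8 CPM, and the adjusted p of Bpifb4 was 0.788 without TO replicate 1. Pla2g1b, a secreted phospholipase, had -3.22 ± 0.67 (edgeR adjusted p = 0.00141), from 0.526 CPM (6 UMIs) in Insl3-high and 7.08 CPM (45 UMIs) in Insl3-low cells of TO replicate 1. In TO replicate 2 the order was the opposite, at 12.9 CPM (2 UMIs) and 2.50 CPM (38 UMIs). Testis replicate 1 had 32.3 CPM (96 UMIs) and 33.2 CPM (18 UMIs) of Pla2g1b. Testis replicate 2 had 30.8 CPM (86 UMIs) and 26.1 CPM (18 UMIs). Its adjusted p was 0.0373 without testis replicate 2, and its value turned positive without TO replicate 1. Hephl1 had 3.16 ± 0.71 (edgeR adjusted p = 0.00679), with 458 and 238 CPM in the 2 classes of TO replicate 1, but 6 UMIs in each class of testis replicate 1 and 2 in each class of testis replicate 2. The call of Hephl1 held under 4 of 14 alternatives, was lost under 9 and turned its direction under 1, and its adjusted p was 0.0502 without TO replicate 1, 1 without testis replicate 1 and 0.0758 without testis replicate 2. Ly6d had 3.09 ± 0.27 (edgeR adjusted p = 1.96e-18). It was at 98.8 CPM in Insl3-high and 20.1 CPM in Insl3-low cells of TO replicate 1, with 1 and 10 UMIs in TO replicate 2. It was at 99.3 and 140 CPM in the classes of testis replicate 1 and at 221 and 408 CPM in those of testis replicate 2. Its adjusted p was 0.538 without TO replicate 1. Slc38a1, a glutamine transporter, had -2.62 ± 0.41 (edgeR adjusted p = 1.81e-06), from 1.58 CPM (18 UMIs) and 13.5 CPM (86 UMIs) in TO replicate 1. It was at 79.4 and 144 CPM in the classes of testis replicate 1 and at 154 and 165 CPM in those of testis replicate 2. In TO replicate 2 it had 0 UMIs in Insl3-high cells, which allows up to 19.4 CPM, and 15.9 CPM in Insl3-low cells, so a difference was not detectable there. Its adjusted p was 0.498 without TO replicate 1 and 0.0423 without testis replicate 2.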

How the results depend on the processing

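The lower share of Insl3-high cells in TOs kept its direction under every alternative tried, with differences of -52.3 to -24.9 percentage points, and of -76.4 to -20.3 when 1 library was left out. The counts of genes called between TO and testis depended on the processing. Higher and lower genes numbered 78 and 190 with DESeq2, 259 and 629 without the filter on low counts, 23 and 7 when genes at 2 or more times their member level in other cells were left out, 219 and 1286 when none was, 259 and 616 at an adjusted p of 0.05 without a fold threshold, 53 and 63 without the upper limits on cells, 56 and 93 with doublets removed, 10 and 11 with sums thinned to the smallest, 24 and 11 with the background subtracted, and 154 and 650 over all Leydig cells. Leaving out 1 library gave 12 to 299 higher and 2 to 730 lower genes. More genes were higher than lower when genes were left out from 2 times, with the background subtracted and without TO replicate 1. With the replicate number as a block (replicate block), 304 genes were higher and 726 lower. Deviations of same-numbered libraries from their group means had a correlation of 0.0466. With 2 libraries per group, both pairs give this same value by construction. It therefore cannot show whether same-numbered libraries share a batch. The interaction calls, 18 in each direction, became 3 and 1 with DESeq2, 42 and 41 at an adjusted p of 0.05, 2 and 1 without the upper limits, and 3 and 1 with thinned sums. The more negative calls were 11 when genes were left out from 2 times, 30 when none was, 35 at an Insl3 threshold of 5 and 10 with doublets removed. Leaving out 1 library gave 7 to 27 more positive and 8 to 25 more negative calls. Pla2g1b turned to 2.14 without TO replicate 1 (its values were -3.75 to 2.14 when 1 library was left out), Hephl1 to -0.10 with thinned sums and Ly6d to -1.51 at an Insl3 threshold of 20, and the cause was not tested. The 155014 UMIs of members in TO replicate 2 limit what could be seen there to 19.4 CPM.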
